A study of Mus musculus with 5 samples.

Results

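The 7 keratin genes followed here mark the layers of the mouse epidermis: 3 are of the basal layer (Krt5, Krt14 and Krt15) and 4 of the suprabasal layers (Krt1, Krt10, Krt2 and Krt77). They were chosen by gene symbol, are 7 of the 31053 genes counted, and were read in keratinocytes of 3 droplet libraries. Lesional whole skin came from K5. Pp6fl/fl mice of 18 weeks, non-lesional epidermis from K5. Pp6fl/fl mice of 10 weeks, and untreated epidermis from wild-type mice of 10 weeks, all C57BL/6. Pp6 stands for protein phosphatase 6, whose catalytic subunit gene is Ppp6c, and the labels spell out neither what K5 drives nor which part of the gene is deleted. There was 1 library per group, with the number of pooled mice and the body site not given in the sources used here. The series also holds untreated dermis and dermis of wild-type mice after 5 days of imiquimod on the ear. Lesion, age and tissue (whole skin against epidermis) differ together between both K5. Pp6fl/fl libraries and cannot be told apart.

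Keratins form intermediate filaments from pairs of a type I and a type II protein. Basal keratinocytes, which divide and sit on the basement membrane, use the pair Krt5 (type II) and Krt14 (type I), and Krt15 is a further type I keratin of basal cells and of the hair follicle bulge. A cell that leaves the basal layer shuts these genes down and turns on Krt10 (type I) with Krt1 (type II). Krt2 is a type II keratin of the upper spinous layers, known in mice from ear, tail and sole epidermis, and Krt77 is a type II keratin of suprabasal epidermis and sweat ducts.

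All 7 genes lie on the minus strand in both keratin gene clusters of the mouse genome (mm10, GENCODE vM21 annotation). The type I genes are on chromosome 11, with Krt10 from 99385254 to 99389364, Krt15 from 100131758 to 100135928 and Krt14 from 100203162 to 100207548. The type II genes are on chromosome 15, with Krt5 from 101707070 to 101712898, Krt2 from 101810689 to 101818169, Krt1 from 101845426 to 101850794 and Krt77 from 101858731 to 101869705. Krt10 overlaps the antisense gene Gm11940, which had at most 0.0856% of the UMIs of Krt10 in any of the 3 libraries. Promoter windows from 250 bases before to 50 bases after the start (RefSeq, GRCm38.p6) were found for 5 of the 7 genes. That of Krt14 starts 1518 bases inside the annotated gene and is not shown. Those of the basal gene Krt5 and of the suprabasal genes Krt10 and Krt2 are printed 5′ to 3′ on the minus strand, with motif matches in capitals.
Krt5, chr15:101712856-101713155: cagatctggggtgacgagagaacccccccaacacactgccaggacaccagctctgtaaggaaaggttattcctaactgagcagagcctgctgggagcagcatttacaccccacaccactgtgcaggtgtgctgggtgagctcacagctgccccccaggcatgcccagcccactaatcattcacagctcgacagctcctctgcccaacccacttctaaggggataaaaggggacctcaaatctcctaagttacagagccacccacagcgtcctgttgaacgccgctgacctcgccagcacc
Krt10, chr11:99389315-99389614: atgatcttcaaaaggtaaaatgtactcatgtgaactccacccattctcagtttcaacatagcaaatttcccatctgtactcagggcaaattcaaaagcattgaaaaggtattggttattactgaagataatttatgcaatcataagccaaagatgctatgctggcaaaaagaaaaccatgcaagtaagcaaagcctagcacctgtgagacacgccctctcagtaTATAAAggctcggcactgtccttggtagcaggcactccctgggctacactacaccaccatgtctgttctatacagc
Krt2, chr15:101818120-101818419: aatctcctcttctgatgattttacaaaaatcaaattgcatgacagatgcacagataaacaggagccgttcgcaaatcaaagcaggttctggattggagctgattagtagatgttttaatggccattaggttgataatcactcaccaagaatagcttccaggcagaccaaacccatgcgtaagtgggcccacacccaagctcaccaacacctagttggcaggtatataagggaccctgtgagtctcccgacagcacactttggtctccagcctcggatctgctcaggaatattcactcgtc
Motifs were searched on both strands, with N for any base, and their share was taken over 32851 mouse promoter windows of the same length. The TATA box was searched as TATAAA and occurs in 13.6% of windows. The AP-1 motif was searched as TGANTCA and occurs in 7.81%. The AP-2 motif was searched as GCCNNNGGC and occurs in 16.6%. The RBPJ motif was searched as GTGGGAA and occurs in 6.38%. The single match among the 5 windows was a TATAAA that begins 26 bases before the start of Krt10.

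Joint clustering, with the 7 genes left out of the variable genes, gave 331 keratinocytes of 2596 cells in lesional whole skin (12.8%), 1554 of 2807 in non-lesional epidermis (55.4%) and 489 of 898 in untreated epidermis (54.5%). All 14 keratinocyte markers were detected in at least 20% of the keratinocytes of each library. Values are UMIs (unique molecular identifiers, 1 per captured transcript) summed over cells and given as counts per 1e6 UMIs (CPM). Brackets hold exact 95% intervals (Poisson for a CPM, binomial for a share, conditional binomial for a ratio) that cover counting error only, not differences between mice, and no test between groups was possible.

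The libraries differ in ways that touch what follows. Keratinocytes had a median of 20243.0 UMIs in lesional skin, 9710.5 in non-lesional and 2196.0 in untreated epidermis. Their median mitochondrial share was 5.40% in lesional skin, 3.20% in non-lesional and 0.0665% in untreated epidermis, where 291 of 489 keratinocytes (59.5%) lay under 0.1%, against 11 in lesional skin and 1 in non-lesional epidermis. Lesional skin held keratinocytes with UMIs of Xist only (127) and of Y-linked genes only (151), so it holds cells of both sexes, while the epidermis libraries had no keratinocyte with Xist only. It shares no cell barcode with the other 4 libraries, which share 1 to 27 with each other in pairs. Most lesional keratinocytes fell in cluster 20 (265, 80.1%), most non-lesional ones in cluster 22 (890, 57.3%) and most untreated ones in cluster 12 (301, 61.6%). Ppp6c stood at 52.1 CPM (47.3 to 57.2) in lesional, 71.8 (67.6 to 76.2) in non-lesional and 79.8 (68.4 to 92.6) in untreated keratinocytes, which checks nothing about the genotype, since reads come from 3′ ends and the labels do not say which exons were floxed.

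In lesional keratinocytes the basal pair Krt5 and Krt14 kept levels close to the non-lesional ones, while Krt15 was 8.16-fold lower and Krt2 was all but absent. Summed over cells, Krt1 was 3.79-fold higher and Krt10 1.78-fold lower, so that both stood at like levels. Of the 13311 lesional Krt1 UMIs, 10018 came from the 23 keratinocytes led by suprabasal genes, as defined below. Krt1 was detected in 28.4% of lesional and 56.5% of non-lesional keratinocytes. With cells thinned to equal depth, it was detected in 13.1% (9.68 to 17.3) of lesional and 15.4% (13.6 to 17.3) of non-lesional ones. The higher sum was thus not matched by detection in more cells. The part of free RNA, described below, in these shares was not tested. The pattern in lesional skin was therefore not a shift of all basal genes one way and all suprabasal genes the other, but a change of the genes that make up each side. Of the 7 genes, 2 were higher and 3 lower with an interval wholly beyond 1.5-fold, against 35.6% of the 8412 genes measured in this comparison (2998 genes, 2134 of them higher and 864 lower).

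Among basal genes, Krt14 was at 12899 CPM in lesional, 14804 in non-lesional and 16817 in untreated keratinocytes, and its lesional to non-lesional ratio was 0.871 (0.865 to 0.878). Krt5 was at 4947 CPM in lesional, 4107 in non-lesional and 5225 in untreated keratinocytes, with a lesional to non-lesional ratio of 1.20 (1.19 to 1.22). Neither ratio lay beyond 1.5-fold, and the order of the 3 libraries differed between both genes of the pair. Krt15 was at 1148 CPM (1125 to 1171) in lesional, 9361 (9313 to 9410) in non-lesional and 8508 (8386 to 8631) in untreated keratinocytes. Its lesional to non-lesional ratio was 0.123 (0.120 to 0.125). T cells and innate lymphoid cells (ILCs) do not make keratins and so show the level of free RNA. Krt15 was at 8.96 CPM in those of lesional skin, far below the 1148 CPM of lesional keratinocytes. In those of non-lesional epidermis it was at 2062 CPM, so free RNA of Krt15 differed widely between both libraries.

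Among suprabasal genes, Krt10 was at 1789 CPM in lesional, 3185 in non-lesional and 5728 in untreated keratinocytes (lesional to non-lesional ratio 0.562, 0.551 to 0.572). Its type II partner Krt1 was at 1565 CPM in lesional, 413 in non-lesional and 481 in untreated keratinocytes (ratio 3.79, 3.68 to 3.91). Krt10 was thus lowest where Krt1 was highest. Krt2 had 1 UMI in the 8505946 of lesional keratinocytes (0.118 CPM, 0.00298 to 0.655), against 32345 UMIs (2116 CPM) in non-lesional and 11213 (5146 CPM) in untreated keratinocytes. The lesional to non-lesional ratio of Krt2 was 5.56e-05 (1.41e-06 to 3.10e-04). In lesional skin Krt2 was also at 0 UMIs in T cells and ILCs and reached at most 0.384 CPM in any of 12 other cell classes, and it was at 0 in the 8 classes of imiquimod dermis and the 4 of untreated dermis with at least 20 cells. Krt77 was the rarest of the 7, at 31.9 CPM (271 UMIs) in lesional, 12.4 (189) in non-lesional and 18.4 (40) in untreated keratinocytes. Its ratio of 2.58 (2.13 to 3.12) rested on few cells: 208 of the 271 lesional UMIs (76.8%) came from 2 cells.

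**Figure D1:**
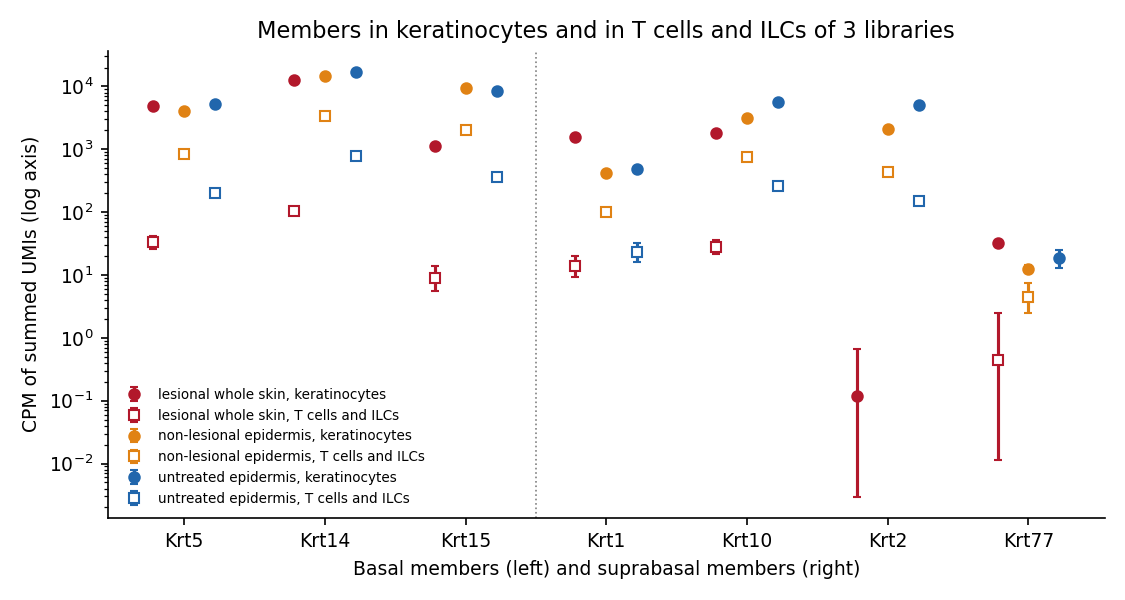
CPM of each gene (log axis) in keratinocytes (filled circles) and in T cells and ILCs (open squares) of lesional whole skin, non-lesional epidermis and untreated epidermis, with exact Poisson 95% intervals, and values of 0 not drawn. Lesional keratinocytes stand apart in Krt15 (1148 CPM), Krt1 (1565 CPM) and Krt2 (0.118 CPM), and the open squares show more free keratin RNA in non-lesional epidermis than in the other libraries.

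Free RNA differed between the libraries as the squares of the plot of levels show. Krt14 was at 104 CPM in T cells and ILCs of lesional skin, 3375 in non-lesional and 773 in untreated epidermis. Krt10 was at 27.8 CPM in T cells and ILCs of lesional skin, 744 in non-lesional and 264 in untreated epidermis, and Krt2 at 0, 442 and 148 CPM in the same order. For Krt10 the reading as free RNA is less sure. In imiquimod dermis, with no cell classed as a keratinocyte, T cells and ILCs had 15.4 CPM of Krt10 and 1.84 CPM of Krt14. How much of the lesional 27.8 CPM is free RNA was not tested. In T cells and ILCs, 6 of 7 genes were lower in lesional than in non-lesional libraries (36.9% of all genes called in either direction and 19.3% lower), and 6 of 7 were higher in non-lesional than in untreated epidermis (5.49% of all genes called in either direction and 3.94% higher), with Krt77 too low to measure in both. Subtracting these levels kept the direction of Krt15 (log2 ratio −2.68), Krt1 (2.29), Krt10 (−0.47) and Krt2 (−8.36) between lesional and non-lesional keratinocytes.

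The make-up of each side can be read as shares, which do not depend on the other genes of the cell. Of suprabasal UMIs, Krt10 took 52.8% in lesional, 55.6% in non-lesional and 50.4% in untreated keratinocytes. The rest was almost all Krt1 in lesional keratinocytes (46.2%, with 0.00347% from Krt2). In the epidermis libraries it was mostly Krt2, at 37.0% in non-lesional and 45.2% in untreated keratinocytes, with Krt1 at 7.21% in non-lesional and 4.23% in untreated ones. The type I share was therefore near 50% in all 3 libraries, while the type II side was Krt1 in lesional skin (98.0% of type II suprabasal UMIs) and Krt2 in non-lesional (83.3%) and untreated epidermis (91.2%). For each UMI of Krt10, keratinocytes held 0.875 UMIs of Krt1 (0.855 to 0.896) in lesional skin, 0.130 in non-lesional and 0.0840 in untreated epidermis. On the basal side, Krt15 made up 6.04% of UMIs in lesional, 33.1% in non-lesional and 27.8% in untreated keratinocytes, and Krt5 26.0% in lesional, 14.5% in non-lesional and 17.1% in untreated ones.

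**Figure D2:**
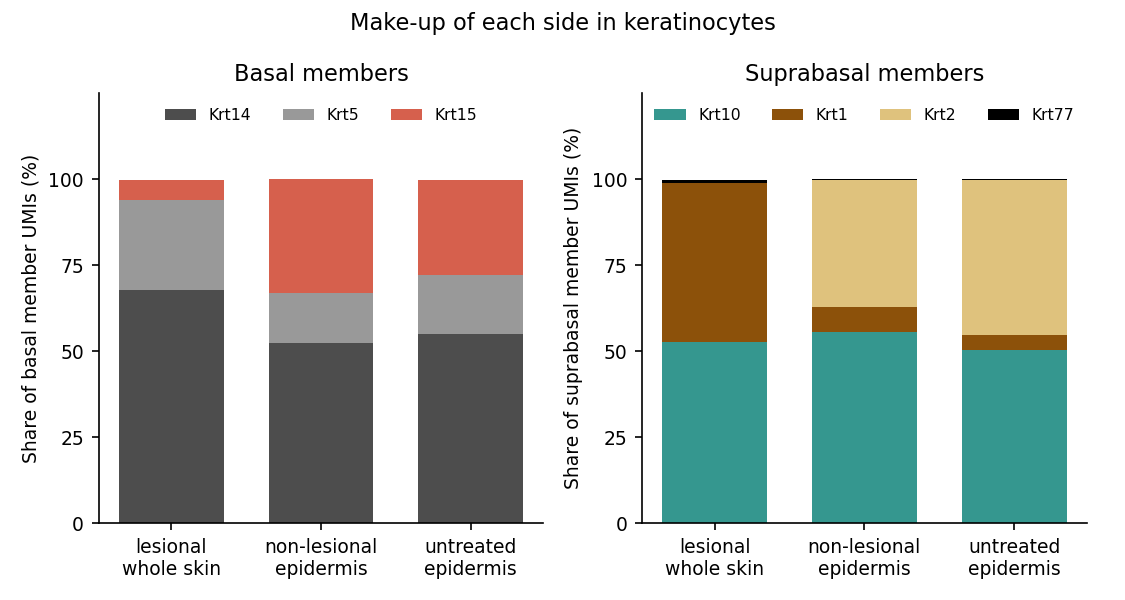
Stacked shares (in percent) of basal UMIs from Krt14, Krt5 and Krt15 (left) and of suprabasal UMIs from Krt10, Krt1, Krt2 and Krt77 (right) in keratinocytes of 1 library per group. Krt1 fills the lesional bar beside Krt10 (46.2%), where Krt2 fills that of non-lesional (37.0%) and untreated epidermis (45.2%).

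Much the same suprabasal make-up held in cells that had switched, while the basal make-up differed there in lesional and untreated cells. In the 23 lesional keratinocytes led by suprabasal genes (at least 50% of their UMIs of the 7 genes, in cells with at least 20 such UMIs), Krt1 gave 44.0% of suprabasal UMIs and Krt2 a single UMI of 22745. In 110 such non-lesional cells Krt1 gave 6.76% and Krt2 31.3%, and in 94 untreated ones Krt1 gave 2.59% and Krt2 40.9%. These lesional cells held 1 UMI of Krt15 among 3786 basal UMIs, of which 93.6% were Krt14 (67.9% over all lesional keratinocytes). In non-lesional ones the basal UMIs were 55.1% Krt14, 31.9% Krt15 and 13.0% Krt5, next to 53.7%, 32.8% and 13.4% in the free RNA of T cells and ILCs of that library. In untreated ones they were 75.6% Krt14, 12.4% Krt15 and 11.9% Krt5, against 57.9% Krt14 and 27.1% Krt15 in T cells and ILCs there. Over all untreated keratinocytes Krt14 gave 55.0% and Krt15 27.8% of basal UMIs.

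Summed over keratinocytes, suprabasal genes gave 15.1% of the UMIs of the 7 genes in lesional skin, 16.8% in non-lesional and 27.1% in untreated epidermis. The difference between lesional and non-lesional skin, −1.7 percentage points, turned to 1.1 as a mean over cells and to 9.7 where single cells were gated by markers in place of clusters. Cell by cell, the balance was split, with most cells far to one side. A suprabasal lead was found in 23 of 316 lesional cells (7.28%, 4.67 to 10.7), 110 of 1514 non-lesional (7.27%, 6.01 to 8.69) and 94 of 466 untreated ones (20.2%, 16.6 to 24.1). Shares between 20% and 80% were held by 6.01% of lesional, 8.12% of non-lesional and 13.7% of untreated cells, and 8, 29 and 18 cells in that order lay between 40% and 60%, near the cut.

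The low end of the balance also differed. The median suprabasal share of a cell was 0.268% in lesional, 5.57% in non-lesional and 8.23% in untreated keratinocytes, and 83.5% of lesional, 44.3% of non-lesional and 36.1% of untreated cells were under 5%. Free RNA carries suprabasal UMIs too: their share in T cells and ILCs was 22.3% in lesional skin, 17.0% in non-lesional and 24.6% in untreated epidermis, at the levels given above. Of the 94 suprabasal UMIs in lesional T cells and ILCs, 62 were of Krt10, for which this reading is less sure. The part of free RNA in these medians was not tested. At the high end, 14 of 316 lesional and 49 of 466 untreated cells exceeded 95%, against 1 of 1514 non-lesional cells, whose switched cells gathered between 75% and 95%. Free RNA also carries basal UMIs, most of all in non-lesional epidermis. Krt14 was at 3375 CPM in T cells and ILCs there, against 104 in lesional skin and 773 in untreated epidermis. The part of free RNA in this gap at the high end was not tested. With each cell thinned to 1000 UMIs (4 lesional, 46 non-lesional and 81 untreated cells were too shallow), the led share among cells that still had 20 UMIs of the 7 genes was 16.4% (10.2 to 24.4) of 116 lesional, 8.28% (6.79 to 9.97) of 1220 non-lesional and 21.4% (17.3 to 26.0) of 355 untreated cells. That condition was met by fewer of the lesional cells, whose UMIs of the 7 genes make up 2.24% of all, against 3.40% in non-lesional and 4.19% in untreated keratinocytes. Of all thinned cells, 19 of 327 lesional, 101 of 1508 non-lesional and 76 of 408 untreated cells were led and met it.

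**Figure D3:**
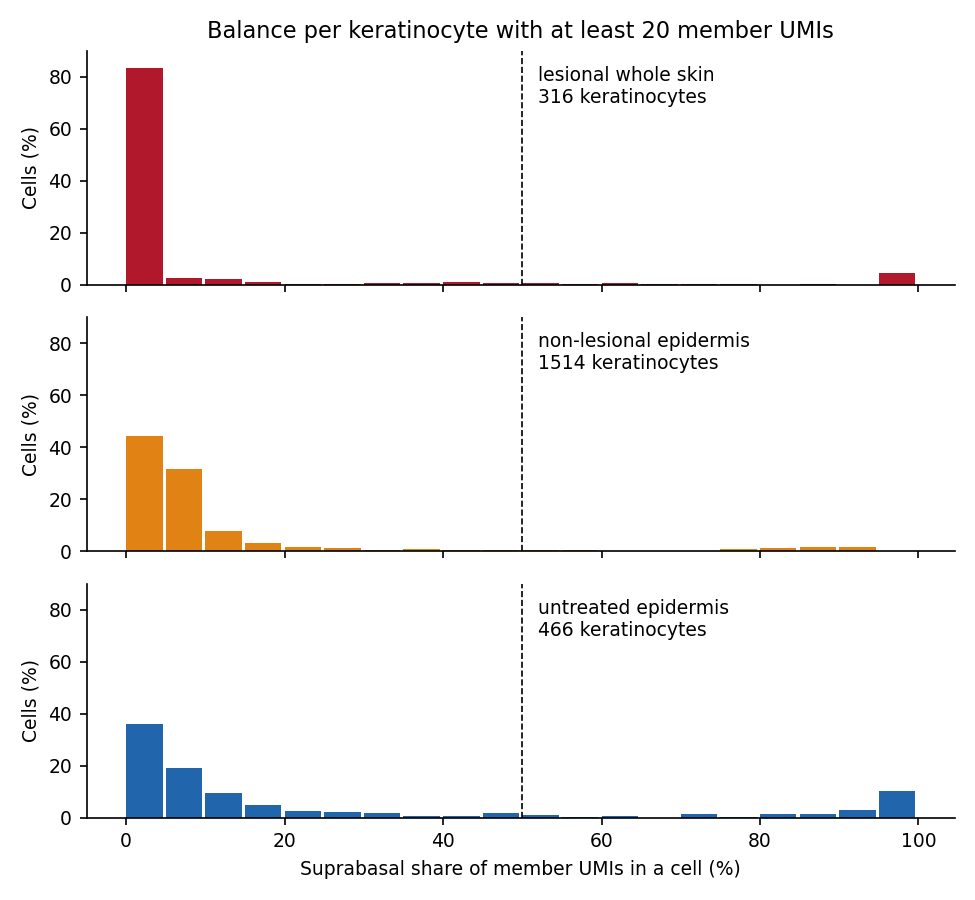
Histograms of the suprabasal share of a cell's UMIs of the 7 genes (x axis, percent, 5-point bins) as percent of keratinocytes with at least 20 such UMIs, in 316 lesional, 1514 non-lesional and 466 untreated cells, with the 50% line dashed. Lesional cells pile up under 5% (83.5%) with a second group above 95%, non-lesional switched cells lie mostly between 75% and 95%, with 1 above, and untreated epidermis has the largest group above 95%. The part of free RNA, which differs between the libraries, was not tested.

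Other genes of the cells differed with the suprabasal share as well. In all 3 libraries the spinous genes Krtdap, Sbsn, Calm4 and Dmkn were higher in cells with a suprabasal share of 50% or more than in cells under 10%. Krtdap, which encodes a secreted keratinocyte peptide, was at 5792 against 866 CPM in lesional, 9736 against 869 in non-lesional and 12280 against 1604 in untreated cells. The basement membrane genes Col17a1, Itga6 and Itgb4, which anchor basal cells, went the other way in each library. Col17a1 was at 30.2 against 546 CPM in lesional, 291 against 536 in non-lesional and 382 against 698 in untreated cells. The proliferation gene Mki67 was at 6.86 against 149 CPM in lesional, 10.3 against 60.2 in non-lesional and 11.3 against 12.8 in untreated cells. The untreated values rest on 3 and 17 UMIs (2.34 to 33.2 and 7.43 to 20.4 CPM), too few to tell whether they differ. Lor, which encodes the cornified envelope protein loricrin, did not follow the share in each library: it was at 8.23 against 3.44 CPM in lesional, 65.0 against 77.1 in non-lesional and 110 against 5.25 in untreated cells. Its intervals overlap in lesional cells (6 and 24 UMIs; 3.02 to 17.9 and 2.21 to 5.12 CPM). They also overlap in non-lesional cells (53.0 to 79.0 and 72.1 to 82.4 CPM).

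Within single cells with at least 20 UMIs of the 7 genes, the shares of a cell's UMIs from the basal pair Krt5 and Krt14 moved together in each library (Spearman rho 0.60 over 316 lesional, 0.62 over 1514 non-lesional and 0.63 over 466 untreated cells, which share library and depth). The suprabasal pair Krt1 and Krt10 gave 0.46 in lesional, 0.22 in non-lesional and 0.21 in untreated cells. Krt2 with Krt10 gave 0.38 in non-lesional and 0.67 in untreated cells. The lesional value of 0.10 rests on the 1 cell that held a UMI of Krt2 and cannot be set beside them. Krt15 with Krt14 gave −0.27 in lesional, 0.00 in non-lesional and 0.15 in untreated cells. These are descriptions of sparse counts.

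By cluster, the suprabasal share ran over nearly the whole scale. Cluster 31, led by Calm4, Mt4 and Krtdap, was suprabasal in both K5. Pp6fl/fl libraries (98.8% in 5 lesional cells, 88.5% in 64 non-lesional cells). Cluster 12, with low counts and low mitochondrial shares, reached 27.9% in 13 lesional, 25.8% in 31 non-lesional and 43.9% in 301 untreated cells. Cluster 20, which holds Krt16, Sprr1a, Krt6a and the follicle gene Krt79 among its leading genes, was at 16.1% in 265 lesional, 34.6% in 58 non-lesional and 15.9% in 21 untreated cells. Cluster 22, the main one of non-lesional epidermis, was at 10.9% in 890 non-lesional and 13.6% in 47 untreated cells. The proliferating cluster 24, led by cell cycle genes, was at 1.53% in 36 lesional, 5.85% in 84 non-lesional and 17.5% in 36 untreated cells, the last with a median of 1484.0 UMIs and 0.00631% mitochondrial UMIs. Cluster 21 has Lhx2 and Krt17 among its leading genes. Clusters 9 and 21 were at 5.06% and 4.61% in non-lesional and 2.58% and 1.16% in untreated cells.

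**Figure D4:**
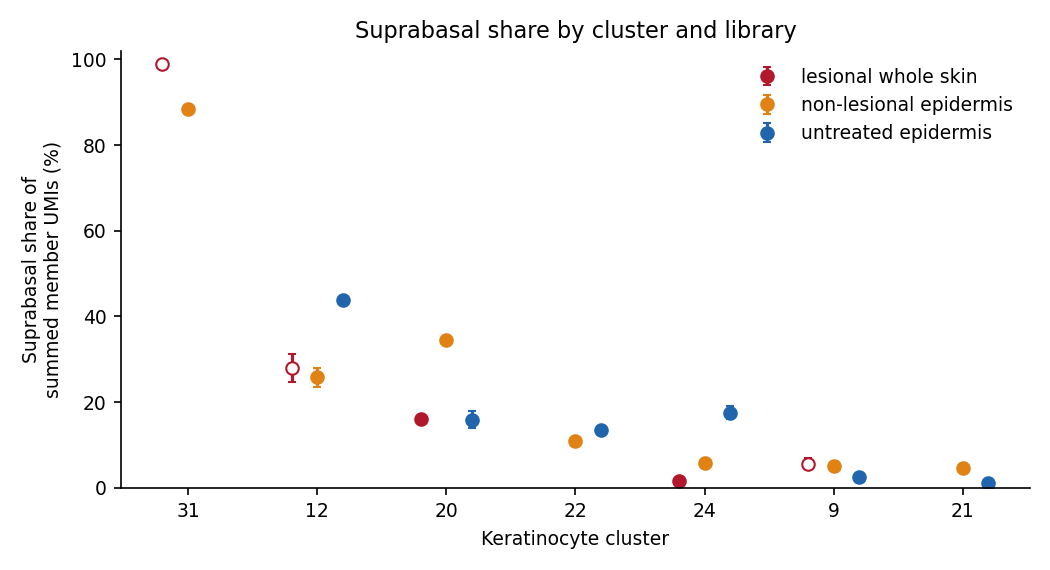
Suprabasal share of the summed UMIs of the 7 genes (y axis, percent) in 7 keratinocyte clusters (x axis) of lesional, non-lesional and untreated libraries, with exact binomial 95% intervals, and open circles for fewer than 20 cells (lesional cells of clusters 21 and 22, 2 and 4, and the 1 untreated cell of cluster 31 are not drawn). The share spans 98.8% in cluster 31 to 1.16% in cluster 21, and the order of the libraries changes from cluster to cluster.

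The lesional pattern was then read within clusters that both libraries fill. Cluster 20 differs between them in other keratins: the follicle keratin Krt79 was at 2119 CPM in lesional and 12988 CPM in non-lesional cells (6.13-fold lower), Krt23 was 39.3-fold lower, and Krt75 was at least 31.5-fold higher against 3 counts. The part of these differences in the values of cluster 20 was not tested. In cluster 20, of the 7 genes 2 were higher and 4 lower (23.2% of all genes called there), and in cluster 24, 2 were higher and 3 lower of 6 measured (19.1%). Krt15 was at 1244 CPM in lesional and 6522 in non-lesional cells of cluster 20 (ratio 0.191, 0.183 to 0.198), and at 711 against 7990 CPM in cluster 24 (0.0889, 0.0837 to 0.0944). Krt2 had 0 UMIs in lesional cells of both clusters, against 327 CPM in non-lesional cells of cluster 20 and 884 CPM in those of cluster 24. Against a floor of 3 counts over the cluster, Krt2 was at least 495-fold lower in cluster 24. No fold is given for cluster 20, where the 327 CPM (3.24 UMIs per cell) of non-lesional cells compare with 442 CPM (1.56 UMIs per cell) in T cells and ILCs of that library. Krt10 had ratios of 0.375 in cluster 20 and 0.340 in cluster 24. Its non-lesional level in cluster 24, 642 CPM or 9.81 UMIs per cell, compares with 744 CPM or 2.63 UMIs per cell in T cells and ILCs. The part of free RNA in these levels was not tested.

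Krt1 and the basal pair depended on the cluster. Krt1 was at 1575 CPM in lesional and 2244 CPM in non-lesional cells of cluster 20 (0.702, 0.662 to 0.744), the reverse of the direction over all keratinocytes, and at 198 against 96.6 CPM in cluster 24 (2.05, 1.67 to 2.54). Krt5 was higher in lesional cells of both clusters, by 5.86-fold (5.31 to 6.48) in cluster 20 and 1.95-fold (1.89 to 2.02) in cluster 24, and Krt14 by 1.80-fold in cluster 20. Krt77 was lower in cluster 20 (0.0469, 0.0337 to 0.0649), again opposite to all keratinocytes. Krt15 was thus lower in the whole class and in both clusters, from non-lesional levels well above those of T cells and ILCs.

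Since the lesional library pools both sexes, its keratinocytes with Xist only and with Y-linked UMIs only were also set apart from each other, and each was compared with non-lesional keratinocytes (34.2% and 31.3% of all genes called). Krt15 was at 1475 CPM in the Xist cells and 944 CPM in the Y cells, and Krt1 at 1342 and 1678 CPM. Krt2 had 1 UMI in the Xist cells and 0 in the Y cells. Krt77 was at 95.7 CPM in the Xist cells and 0.594 CPM in the Y cells, on either side of the 12.4 CPM of non-lesional keratinocytes. The low Krt15 and Krt2 and the high Krt1, each summed over cells, were therefore present in both sexes of this library. The high Krt77 was in the Xist cells only. Since 208 of the 271 lesional Krt77 UMIs came from 2 cells, its split by sex rests largely on those cells. Krt10 was lower in the Xist cells (0.414) and not beyond 1.5-fold in the Y cells (0.665, 0.651 to 0.679).

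**Figure D5:**
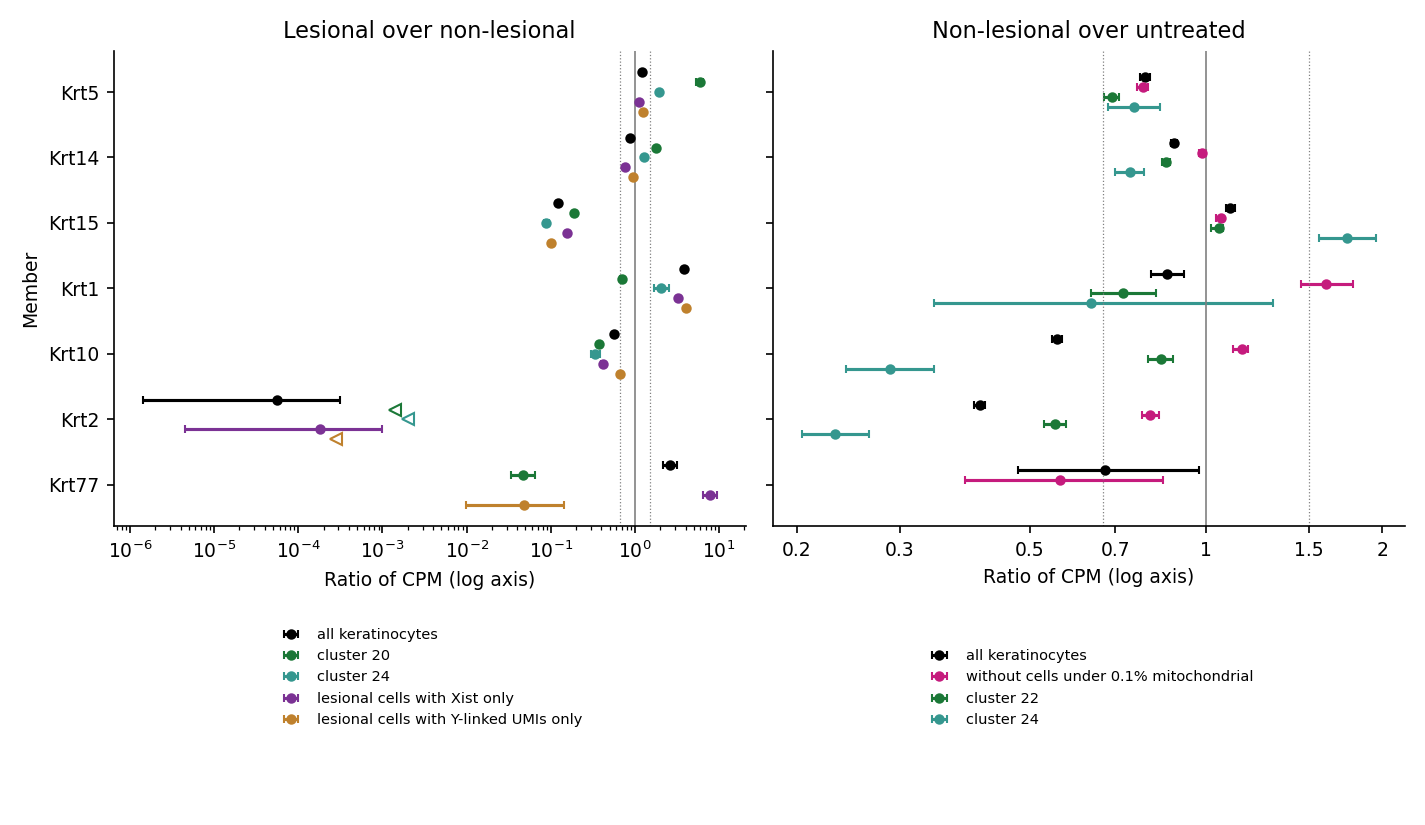
Ratio of CPM (log axis) of each gene for lesional over non-lesional (left) and non-lesional over untreated keratinocytes (right), in all keratinocytes and in the named subsets, with exact 95% intervals. Dotted lines mark 1.5-fold, open triangles stand at the bound against 3 counts where the group on top had 0 UMIs, and genes too low to measure are left out. On the left Krt15 (0.123) and Krt2 (5.56e-05) lie far below 1 in every subset drawn. For Krt2 in cluster 20 the non-lesional level was 327 CPM, against 442 CPM in T cells and ILCs of that library. On the right Krt10 lies at 0.556 in all keratinocytes and at 1.15 without cells under 0.1% mitochondrial UMIs.

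Non-lesional and untreated epidermis share tissue and age and differ in genotype. Over all keratinocytes Krt10 was 1.80-fold lower (3185 against 5728 CPM, ratio 0.556, 0.545 to 0.567) and Krt2 2.43-fold lower in non-lesional epidermis (2116 against 5146 CPM, 0.411, 0.402 to 0.420). These were the 2 of 7 genes beyond 1.5-fold, against 5.04% of 7764 genes measured (391 genes). The intervals of the other 5 did not lie wholly beyond it, with ratios of 0.786 for Krt5, 0.880 for Krt14, 1.10 for Krt15, 0.859 for Krt1 and 0.673 (0.477 to 0.973) for Krt77.

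Both differences moved with the untreated keratinocytes that had almost no mitochondrial UMIs. The suprabasal share was 41.7% in the 291 untreated keratinocytes under 0.1% and 16.3% in the other 198, next to 16.8% in non-lesional epidermis. Without cells under 0.1%, Krt10 was at 3185 CPM in non-lesional and 2777 CPM in untreated keratinocytes (1.15, 1.11 to 1.18), the opposite direction. Krt1 was at 413 against 258 CPM (1.60, 1.45 to 1.78), also the opposite direction, and Krt2 at 2116 against 2636 CPM (0.803, 0.776 to 0.830). None of the 7 intervals then lay wholly beyond 1.5-fold, where 5.54% of all genes were called. The share of led cells in untreated epidermis was 10.0% (6.13 to 15.2) without these cells, against 7.27% in non-lesional epidermis. What the low mitochondrial share stands for was not tested.

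In cluster 22, where both libraries had a like median mitochondrial share (3.15% in non-lesional and 2.76% in untreated cells), Krt2 was 0.552-fold (0.529 to 0.576; 1865 against 3379 CPM) and Krt10 0.836-fold (0.797 to 0.878; 2047 against 2448 CPM). Krt2 was the single one of the 7 genes beyond 1.5-fold there, against 3.40% of all genes in either direction and 1.69% lower. In the proliferating cluster 24, Krt2 was 0.232-fold (0.204 to 0.266) and Krt10 0.288-fold (0.243 to 0.343), with Krt15 higher (1.74, 1.56 to 1.95), against 2.31% of all genes called. Cluster 24 is not matched in quality: its untreated cells had medians of 1484.0 UMIs and 0.00631% mitochondrial UMIs, against 16790.5 and 2.66% in non-lesional ones. In clusters 9 and 21 Krt10 and Krt2 were higher in non-lesional cells (Krt2 by 3.27-fold and 4.37-fold; 2.99% and 2.01% of all genes called), and in cluster 21 so was Krt1, with 38 UMIs in non-lesional and 0 in untreated cells. The non-lesional levels of Krt2, 324 CPM in cluster 9 and 364 CPM in cluster 21, compare with 442 CPM in T cells and ILCs. Per cell those of Krt2 are 2.78 and 1.41 UMIs, against 1.56 in T cells and ILCs. Krt10 was at 594 CPM in non-lesional cells of cluster 9 and 710 CPM in those of cluster 21, against 744 CPM in T cells and ILCs. Krt1 was at 66.4 CPM in non-lesional cells of cluster 21, against 98.9 CPM in T cells and ILCs. The part of free RNA in these levels was not tested. In cluster 12 Krt2 and Krt10 were the 2 genes called, both lower (1.49% of all genes called), and in cluster 20 Krt15, Krt1 and Krt10 were higher (2.18%). Both clusters also differ in median mitochondrial share. It was 0.0239% in untreated and 0.403% in non-lesional cells of cluster 12, and 0.0979% and 2.37% in those of cluster 20. Krt2 was lower in non-lesional cells of clusters 12, 22 and 24, and its ratio was above 1 in clusters 9, 20 and 21. Without cluster 12 the log2 ratio of Krt2 over all keratinocytes was −0.11, against −1.28 with it.

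The other genes of the switch were taken by list. Between lesional and non-lesional keratinocytes, where 25.4% of all genes were higher and 10.3% lower with a median log2 ratio of 0.19, the other keratins moved most (6 higher and 2 lower of 9 measured, median log2 ratio 1.88). Krt6a and Krt16, keratins of injured and hyperproliferative skin, were at 1470 against 28.5 CPM (51.7-fold) and 814 against 65.7 CPM (12.4-fold, 11.6 to 13.2), and Krt75, a follicle companion layer keratin, at 126 against 0.523 CPM (240-fold, 122 to 558). Krt80 was lower (0.395). In cluster 20, whose leading genes include Krt6a and Krt16, 3 of 12 were higher and 5 lower.

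Spinous and granular genes went both ways, with 11 higher and 7 lower of 28 (median 0.29). Sprr1b, a cornified envelope precursor, was 53.4-fold higher (40.0 to 73.1), Sprr1a 3.91-fold and the desquamation protease Klk7 4.33-fold higher. The cross-linking enzyme gene Tgm3 was 8.08-fold lower (16.2 against 131 CPM), Them5 4.96-fold and Lor 3.33-fold lower. In cluster 20 alone the balance of the list turned, with 2 higher and 18 lower of 27 (15.7% of all genes higher and 7.54% lower), among them Cnfn and Cdsn at 22.8-fold and 15.8-fold lower. Basal adhesion genes were higher in 9 and lower in 2 of 19 (median 0.66), and in cluster 20 in 15 and 1 of 19. Cd44, the hyaluronan receptor, was 3.71-fold higher and Postn, which encodes a matrix protein, 2.38-fold higher, and Cd9 and Lamb3 were each 1.84-fold lower. In cluster 20 the integrin gene Itga6 was 11.5-fold higher (6.56 to 22.3), a fold that rests on 12 non-lesional UMIs. Over all clusters Itga6 was at 296 against 175 CPM in cells with a suprabasal share under 10%. It was lower in lesional cells at 10% to 50% (172 against 188 CPM) and at 50% or more (34.3 against 64.4 CPM).

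Regulators of the switch were higher in 20 and lower in 4 of 42 (median 0.62). The Notch ligand gene Jag1 was 6.89-fold higher (5.84 to 8.16; 81.6 against 11.8 CPM), and Cebpb, a transcription factor gene that takes part in keratinocyte differentiation, 3.51-fold higher. The AP-1 genes Fos and Junb were 3.21-fold and 1.94-fold lower, and Rora 2.56-fold lower. In cluster 20, 15 regulators were higher and 3 lower of 43. Notch1, a receptor that promotes the leaving of the basal state in epidermis, was 9.90-fold higher in cluster 20 (5.36 to 20.7; 172 against 17.4 CPM). That fold rests on 10 non-lesional UMIs in 58 cells, which differ from the lesional ones in Krt79. Over all clusters Notch1 was at 173 against 64.4 CPM in cells with a suprabasal share under 10%. It was at 97.7 against 96.7 CPM at 10% to 50%, and at 83.7 against 53.4 CPM at 50% or more. Desmosome genes were higher in 7 and lower in 1 of 13 (median 0.73), with Dsc3, Pkp1 and Dsp at 1.85-fold, 1.72-fold and 1.66-fold and Perp at 0.653-fold. In cluster 20, 3 desmosome genes were higher and 4 lower of 13. Dsg3 was 4.83-fold higher, on 6 non-lesional UMIs, and the suprabasal cadherin genes Dsc1 and Dsg1a were 4.72-fold and 2.81-fold lower. Cell cycle genes were higher in 6 and lower in none of 12 (median 0.68), with Mki67 at 2.65-fold, Rrm2 at 2.27-fold and Top2a at 1.68-fold, and in cluster 20 they were higher in 3 and lower in none of 12.

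In the proliferating cluster 24 the lists took other balances (10.9% of all genes higher and 8.12% lower, median 0.13). Cell cycle genes were higher in none and lower in 4 of 12 (median −0.36), with Cenpf at 0.398, Birc5 at 0.512 and Cdk1 at 0.556. Regulators were higher in 8 and lower in 10 of 39 (median 0.18), with Hopx 3.15-fold higher and Id2 6.61-fold lower. Spinous and granular genes were higher in 6 and lower in 7 of 20 (median 0.10), and basal adhesion genes higher in 7 and lower in 1 of 19 (median 0.84). Desmosome genes were higher in 1 and lower in 1 of 11 (median 0.40), and other keratins higher in 2 and lower in 1 of 7 (median 0.31).

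Between non-lesional and untreated keratinocytes, where 3.05% of all genes were higher and 1.98% lower (median −0.08), few listed genes passed. Spinous and granular genes were higher in 5 and lower in 2 of 22 (median 0.03), with Lor at 81.1 against 19.7 CPM (4.11-fold, 3.03 to 5.71) and Krtdap 1.68-fold and Calml3 1.76-fold lower. Of 19 basal adhesion genes the plakin gene Dst was higher (2.09) and the syndecan gene Sdc4 lower (0.539), with a list median of −0.07. Of 39 regulators Rora alone was beyond 1.5-fold (1.84, 1.60 to 2.12), with a list median of −0.00. No desmosome gene of 11 was called in either direction (median −0.12), Krt16 was higher (3.05) and Krt6a lower (0.481) of 7 other keratins (median −0.21), and cell cycle genes were higher in 4 and lower in 1 of 12 (median 0.44), with Cenpf at 6.04-fold and Mki67 at 4.83-fold.

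Over 15 points of a cluster in a library with at least 20 cells, the genes whose CPM followed the suprabasal share most closely were Eif6, a translation factor (Spearman rho 0.90), Acer1, an alkaline ceramidase of differentiating epidermis (0.90), Calm4, a calmodulin-like gene of suprabasal cells (0.89), Dbi, an acyl-CoA binding protein (0.88) and Dusp22 (0.86), out of 2443 genes. The most opposed were Rab34 (−0.88), Rnps1 (−0.85), Moxd1 (−0.84), Sf3b3 (−0.83) and Puf60 (−0.81). Of these, Rnps1, Sf3b3 and Puf60 encode proteins of mRNA splicing. The points share libraries and depth, and clusters rich in suprabasal genes in untreated epidermis also have few UMIs per cell.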

How the data were processed

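Gene expression was read from 3 of 5 droplet libraries of mouse skin, with both dermis libraries used for clustering and as background. The authors deposited UMI counts per gene and barcode, not normalized, and the matrix headers give software version 3.0.2. CASAVA, Cell Ranger and mm10 are named in the submitters' processing notes without versions. Per the labels, dead cells were removed by FACS and the Chromium 3′ v3 kit was used. The cell-calling step is unnamed in those notes.

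Of 13288 barcodes, those with at least 200 genes and under 20% mitochondrial UMIs were kept. The top Scrublet scores were removed (a share of 0.008 per 1000 barcodes), which took 56 barcodes in lesional skin, 66 in non-lesional and 7 in untreated epidermis. The 11612 cells left were clustered jointly with scanpy 1.11.5 without integration (2000 variable genes less those of the 7 genes, 30 components, 15 neighbours, Leiden resolution 1.0), giving 34 clusters. Cells in which haemoglobin made up 10% or more of UMIs were classed as erythroid. A cluster took the name of its best of 16 marker lists (score at least 0.25, 3 or more markers, each in a 0.2 share of cells or more), and 7 were keratinocytes. Names rest on these markers. Hair follicle and sebaceous cells had marker lists of their own. Clusters 33 (hair follicle, 93 cells) and 29 (sebaceous, 23 cells) are therefore not among the keratinocytes. Krt79 is among the leading genes of cluster 20 and Lhx2 of cluster 21, so values are also given by cluster.

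UMIs were summed per class and library. Genes needed 10 UMIs in the 2 libraries together and 10 CPM in either to be measured, and a gene was called if its ratio's whole interval exceeded 1.5-fold in either direction. Log2 ratios use a pseudocount of 5 CPM. There was no test, since each group has 1 library. Calls and intervals were checked on simulated Poisson counts with known folds. These hold no clumping of UMIs in single cells and no free RNA, so they check the calculation only. Named from each of 6 lists were up to 3 called genes of largest and of smallest ratio with at least 50 CPM in the higher library, and by likeness 5 genes at each end, among genes with 50 CPM in a 0.5 share of the points or 200 CPM in 1. The genes given by suprabasal share (Krtdap, Sbsn, Calm4, Dmkn, Col17a1, Itga6, Itgb4, Mki67, Lor) and values within single clusters were picked with their values in view. The 7 genes and all lists were chosen with earlier results of these data known. Some genes that this rule names are not reported here.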

Additional observations from a re-analysis of the deposited data

How the results depend on the processing

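No paired analysis was possible because each group has 1 library and no replicate numbers are shared. The difference in suprabasal share was −10.3 points for non-lesional minus untreated and −1.7 for lesional minus non-lesional. In that order these were −9.8 and −0.2 with 500 genes and 10% mitochondrial limits (led share 11.6% in lesional skin), −12.7 and −5.0 with all barcodes (9.30% in non-lesional), −13.0 and 9.7 with a marker gate per cell (18.2% in non-lesional; 504 genes past 1.5-fold between lesional and non-lesional, against 2998), −20.4 and 1.1 as means over cells, −19.9 and 1.3 after thinning (1135 genes; 16.4% in lesional), and −13.3 and −4.8 without follicle or sebaceous clusters (11.8% in lesional, 10.0% in non-lesional, 24.6% in untreated). The first was 0.5 without cells under 0.1% mitochondrial UMIs (10.0% in untreated). The second was −3.1 with Xist cells and −0.9 with Y cells. Subtracting T cell levels gave 799 genes between non-lesional and untreated, against 391. A lead from a share of 0.3 gave 9.84% in non-lesional and 25.1% in untreated, and from 0.7 gave 5.88% in non-lesional.

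Chosen after seeing the data, leaving out cluster 12 gave 2.6 for the first difference (5.08% in untreated), leaving out cluster 20 gave −10.9 and −3.4 (11.9% in lesional), and including follicle and sebaceous cells gave −2.1 for the second.

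Between lesional and non-lesional skin, Krt1, Krt10, Krt15 and Krt2 kept their direction in 18 of 18 settings. The log2 ratio of Krt10, −0.83, ran from −1.44 with all barcodes to −0.29 by marker gate, and was under 1.5-fold also with strict limits (−0.50), with T cell levels subtracted (−0.47) and, by its interval, with Y cells (−0.59). Log2 ratios turned for Krt5 (−0.50 by marker gate, −0.07 as mean, −0.04 thinned, −0.00 with follicle and sebaceous cells), Krt14 (0.07 with strict limits, 0.01 without follicle clusters, 0.16 with T cell levels subtracted, 0.11 without cluster 20) and Krt77 (−1.63 with Y cells). Between non-lesional and untreated, Krt2 (−1.28) kept its direction in 16 of 16, from −2.10 as mean over cells to −0.11 without cluster 12, and was −0.32 without cells under 0.1% mitochondrial UMIs. Without cells under 0.1% mitochondrial UMIs Krt1 was 0.67 and Krt10 0.20, and without cluster 12 they were 0.83 and 0.47. Krt15 was −0.28 by marker gate and −0.16 with T cell levels subtracted, and Krt77 was 0.96 with all barcodes, 0.62 without follicle clusters and 0.47 without cluster 20. The cause was not tested. Depth limits Krt77 (40 UMIs in untreated keratinocytes) and lesional Krt2 (1 UMI).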

Other observations

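Krt10 was also read in fibroblasts. In imiquimod dermis, a library with no cell classed as a keratinocyte, 376 fibroblasts had 136 UMIs of Krt10, or 33.9 CPM (28.4 to 40.1), in 26.3% of cells, with 3 UMIs of Krt14 (0.747 CPM). In the same library Krt10 was at 15.4 CPM in T cells and ILCs and 3.84 CPM in macrophages or monocytes. The 26 fibroblasts of untreated dermis had 169 CPM of Krt10 (121 to 230) with 21.1 CPM of Krt14, and 684 fibroblasts of lesional whole skin had 42.5 CPM of Krt10 with 55.7 CPM of Krt14.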
